A study of Mus musculus with 4 samples.

Results

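Glutathione transferases, aldehyde dehydrogenases, flavin monooxygenases, sulfotransferases, UDP-glucuronosyltransferases and the indole methyltransferase Inmt were examined in cardiac mesenchymal progenitors (CMPs) that received reprogramming factors. The genes were taken by their symbols on the array, which gave 82 genes out of 32138 named genes, the latter including noncoding transcripts. They comprised 21 Gst genes (cytosolic glutathione transferases), 3 Mgst genes (microsomal glutathione transferases), 19 Aldh genes (aldehyde dehydrogenases), Fmo genes (flavin monooxygenases), 17 Sult genes (sulfotransferases), 14 Ugt genes (glucuronosyltransferases) and Inmt. Symbols numbered in another way, such as a family without a letter between its numbers, were not included by this choice. Of the 119 probes for these genes, 112 carried a RefSeq accession of the gene they were named for.

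These enzymes handle reactive and poorly soluble molecules. Glutathione transferases join glutathione to electrophiles such as the aldehydes formed when lipids are oxidised, sulfotransferases and glucuronosyltransferases add a sulfate or a glucuronic acid group, and flavin monooxygenases oxidise nitrogen and sulfur atoms. Aldehyde dehydrogenases turn aldehydes into acids, and besides detoxification they serve retinoic acid synthesis, folate metabolism and the breakdown of amino acids. Many members are known best from liver, and several belong to the response to oxidants or xenobiotics.

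CMPs were Sca-1+ cells isolated from the hearts of adult C57BL/6 mice, and by the study's methods from the atria. OSKM-CMPs carried Oct4, Sox2, Klf4 and c-Myc delivered by Sendai virus and were collected at days 4, 6 and 8, and the CMP control received no treatment and is labelled as day 0. By the labels all cells were grown in DMEM/F12 with 10% FBS and 40 ng/ml bFGF, for which the study's methods give another concentration, and by the methods the OSKM-CMPs were moved after transduction to a reprogramming medium without leukemia inhibitory factor, while a medium change of the control is not given in the sources used here. Factors, virus, medium and time in culture therefore cannot be told apart.

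Each of the 4 conditions was measured on 1 single-colour array with 250 ng of labelled RNA, so there was no replicate of any condition and no test between conditions. A level is the log2 of the processed signal minus the 75th percentile of the same array, so that 0 is the 75th percentile of that array, and levels of different genes are not comparable because probes differ in brightness. A change is a difference of 2 such levels. Its error (±) is 1 SD from the error model of the scanner software, which covers neither cultures nor RNA preparation. For a mean over several spots or probes these errors were combined as if independent, so ± does not include disagreement between probes. A gene is called higher or lower when it changed at least 2-fold (1 on the log2 scale) and was flagged as well above background on at least 1 of the 2 arrays. The 75th percentile was a signal between 388 and 411 on the 4 arrays, between 56.6% and 59.6% of probes were well above background, and 0 spots were saturated.

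Of the 82 genes, 59 (72.0%) were well above background on at least 1 array and 54 on all 4. Of all 32138 named genes, 23058 (71.7%) were so on at least 1 array and 19481 on all 4. The share measured was thus near that of all genes. By array, 55 of the 82 were well above background on the CMP control, and 56, 55 and 58 at days 4, 6 and 8. For all named genes these counts were 20918 on the control, and 21169, 20993 and 21810. All 19 Aldh genes and all 3 Mgst genes were measured, as were 20 of 21 Gst genes, 8 of 14 Ugt genes and only 4 of 17 Sult genes. The genes well above background on no array were Gstt4, then Fmo4, Fmo6 and Fmo9, then Sult1b1, Sult1c1, Sult1c2, Sult1d1, Sult1e1, Sult2a1, Sult2a2, Sult2a3, Sult2a4, Sult2a6, Sult2a7, Sult3a1 and Sult6b1, and Ugt2a3, Ugt2b1, Ugt2b34, Ugt2b35, Ugt2b36 and Ugt2b5. Changes of these 23 are not reported.

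OSKM-CMPs showed higher levels of many of these genes from day 4 on. At day 4, 20 of the 59 measured genes (33.9%) were at least 2-fold higher than in the CMP control, where 10.7% of all measured named genes were. At the same time 8 (13.6%) were at least 2-fold lower, where 8.65% of all were. At day 6 the counts were 22 higher (37.3%, against 11.5% of all) and 8 lower (13.6%, against 10.5%). At day 8 they were 25 higher (42.4%, against 14.5%) and 8 lower (13.6%, against 10.4%). The share of lower genes thus lay near that of all genes, and the share of higher genes lay well above it on each day. The median change of the 59 genes was 0.53, 0.39 and 0.76 at days 4, 6 and 8, while the median of all genes was 0.00, -0.03 and 0.00.

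Some of these calls were bound to arise, because a gene measured only where it is high had to differ. Aldh3b2 and Ugt2a1 were well above background at day 8 alone, Ugt1a6a on every array but the control, Ugt2b38 at day 4 alone and Ugt2b37 on the control and at day 8. Among the 54 genes well above background on all 4 arrays, 22 were called higher and 8 lower at day 8. Their median change was 0.46, and that of all genes under this filter was -0.04. The share of all genes called under this filter was not counted. Of all 59 measured genes, over the 3 days 27 were called higher at least once and never lower and 9 lower and never higher. Fmo2 was called both ways, and 22 were not called. The matching shares of all genes were not counted. Cytochrome P450 genes, the oxidising enzymes that often precede conjugation, had 9 of 48 measured genes (18.8%) higher and 7 (14.6%) lower at day 8, and their median change was 0.23.

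**Figure D1:**
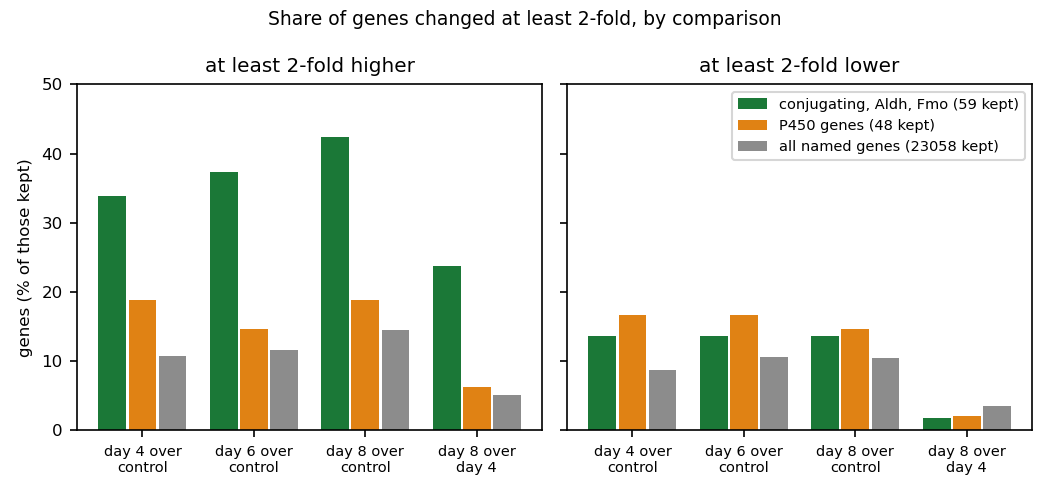
Share of measured genes (y axis, %) that were at least 2-fold higher (left) or lower (right) in each comparison (x axis), for the 59 conjugating enzymes, aldehyde dehydrogenases and Fmo genes, 48 cytochrome P450 genes and all 23058 named genes. Bars are shares from 1 array a condition and carry no error. The green bars for higher genes stand at 33.9%, 37.3% and 42.4% over the control, above those of all genes, and the green bars for lower genes stand close to those of all genes.

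Cell type markers moved between the same arrays, and their part in the results below was not tested. All 9 adipocyte markers were higher at day 8, when 9 of 9 were well above background against 4 of 9 on the CMP control. The log2 of their summed signal was 2.93 on the control and 5.50, 7.48 and 8.63 at days 4, 6 and 8. Such a sum is set mainly by the brightest probes of a list, so it does not measure the share of a cell type. The 8 mesenchymal progenitor markers were well above background on all arrays, with a log2 summed signal between 10.0 and 10.4, and Ly6a, which encodes Sca-1, had a level of 4.65 on the control and 7.35 at day 8, while Thy1 (-1.78) and Eng (-1.19) were called lower. Of 7 epithelial markers, 4 were well above background on the control and 6 at day 8. Krt8, Krt14 and Cdh1 were called higher at day 8, Krt5 (0.24), Krt18 (-0.77) and Cldn4 (-0.02) were not called, and Epcam was well above background on no array. The log2 summed signal of this list was -0.25 on the control and between 1.83 and 2.63 afterwards. Of the smooth muscle markers, Acta2, Tagln and Cnn1 were called lower, Des was at least 1.86-fold higher without a call and Myh11 was well above background on no array, and the log2 summed signal went from 9.18 to 4.26 at day 8. Endothelial markers had 0.94 on the control and 0.17 at day 8, with Cdh5 and Emcn well above background on the control alone. Tek (-2.70) was also called lower, and Pecam1 (0.10), Kdr (-0.27) and Vwf (0.78) were not called. On the same 2 arrays macrophage markers had a log2 summed signal of -0.11 and -0.49, and cardiomyocyte markers 3.59 and 2.08 with Actc1 on no array. Single markers of the latter types moved in both directions, with Cd68 (1.56 ± 0.42) called higher and Tyrobp called lower among the macrophage markers. Among the cardiomyocyte markers Myh6 (at least 1.91-fold) and Tnni3 (at least 3.28-fold) were called higher and Tnnt2 lower, from 3.56 to 1.96, and the median change over the measured ones was 0.71. The hepatocyte markers Alb, Apoa1, Ttr, Apob and Fgb and the pluripotency markers Pou5f1 and Zfp42 were well above background on no array. Of the same lists, Serpina1a, Nanog, Tdgf1, Esrrb and Dppa5a were well above background on all 4 arrays and Cps1 at day 8 alone, with Cps1 at least 2.00-fold and Dppa5a 2.85-fold higher at day 8. In bulk RNA, more or fewer cells of a type and more or less RNA per cell cannot be told apart.

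The alpha class of the cytosolic glutathione transferases held the largest rises of its family. Gsta1, an enzyme that conjugates electrophiles and reduces lipid peroxides, had a level of -3.48 on the CMP control and 3.38, 3.36 and 4.40 at days 4, 6 and 8, a change of 7.87 ± 0.23 at day 8 (234-fold). Gsta2, its close relative, had -4.83 on the control and 2.07, 2.18 and 3.20 on the other arrays, a change of 8.03 ± 0.33 (262-fold). Both were dim on the control and were already 116-fold and 120-fold higher at day 4. After normexp background correction with quantile normalization, which pulls dim values together, the day 8 changes were 6.41 for Gsta1 and 5.73 for Gsta2, so their order turned. The probes for this pair are so alike that their signals cannot be assigned safely to one gene. Of 50 aligned bases 46 are identical, and a stretch of 30 bases of each probe is shown because it holds 3 of the 4 differences, which are in capitals. The first comes from the Gsta1 probe at chr9:78090411-78090470 (mm9, plus strand, bases 2 to 31 of the probe) and the second from the Gsta2 probe at chr9:78178856-78178915 (mm9, minus strand, bases 12 to 41).
Gsta1: tggcctctaatGgtttgcaattataaaaAG
Gsta2: tggcctctaatTgtttgcaattataaaaTA
A further probe that the array lists under the name of a noncoding transcript has the same sequence as the Gsta1 probe, and its change at day 8 was 8.00 ± 0.23.

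The other alpha class genes followed different courses. Gsta4, which conjugates the lipid peroxidation product 4-hydroxynonenal, had -2.43 on the control and 1.19, 1.29 and 1.98 at days 4, 6 and 8, a rise of 4.41 ± 0.07 at day 8 (21.3-fold). Gsta3, which also acts in steroid isomerisation, had 0.49 on the control and 0.34, 0.77 and 1.81 on the later arrays. It was thus called only at day 8, by 1.32 ± 0.14, and both of its probes gave this course, with changes of 1.27 and 1.37.

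Mu class genes showed smaller changes. Gstm1 had 4.24 on the control and 5.50, 5.27 and 5.23 afterwards, a change of 1.26 ± 0.14 at day 4 that came to 1.03 and 1.00 on the later arrays, the last just short of 2-fold (1.99-fold). One of the Gstm1 probes is placed on chromosome 5 by the array files and the other on chromosome 3, and they gave 0.95 and 1.04 at day 8. Gstm7 was higher at day 4 alone, with -2.90 on the control and -1.49, -2.15 and -2.39 afterwards, the day 4 change being 1.41 ± 0.11. Gstm6 was the only Gst gene that fell, with levels of -2.61, -3.71, -4.08 and -4.40 in the same order and a change of -1.79 ± 0.47 at day 8. The Gstm6 value averages 3 probes, whose changes ranged from -3.19 to -1.04, and with all its probes, dim ones included, it was -0.88 and no longer called. A Gstm6 probe and a Gstm7 probe share 41 of 55 aligned bases. Gstm2 was among the steadiest genes, with 4.85 on the control and 4.75 at day 8. Gstm3, Gstm4 and Gstm5 had changes between 0.13 and 0.30 at day 8 and were not called on any day.

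Of the theta, zeta, kappa, omega and pi classes, 3 genes rose. Gstz1, an isomerase of tyrosine breakdown, climbed step by step from 2.31 on the control to 3.16, 3.73 and 4.25, a rise of 1.94 ± 0.20 at day 8 (3.85-fold). Gstt3 had 2.64 on the control and 4.04, 4.07 and 4.10 afterwards, so that its whole rise of 1.46 ± 0.20 was there at day 4. Gstt2 had -2.87 on the control and -1.80, -1.68 and -1.80 on the other arrays, and its rise of 1.07 ± 0.22 at day 8 lost the call under 3 other scalings. For Gstt1 the mean over probes was 0.76 at day 8 and was not called, but its probes disagreed. The probe with a RefSeq accession of Gstt1 went from 3.62 to 5.17, a change of 1.56, and the probe without one went from -1.93 to -1.97. Gstk1, a mitochondrial and peroxisomal enzyme, stayed between 1.29 and 1.47 on the 4 arrays. The pi class genes Gstp1 and Gstp2, of which a Gstp1 probe is also listed under Gstp2, had changes of -0.16 and -0.13 at day 8, and the omega class genes Gsto1 and Gsto2 had 0.40 and 0.78. None of these 5 was called on any day.

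All 3 microsomal glutathione transferases, small membrane proteins of another fold, were higher at day 8, where 14.5% of all measured named genes were. Mgst2, which can also make leukotriene C4, had a level of -2.43 on the control and 1.32, 1.02 and 1.36 at days 4, 6 and 8, a rise of 3.79 ± 0.21 at day 8 (13.8-fold). Mgst3 went from 1.25 to 4.02, 3.58 and 3.48, a rise of 2.23 ± 0.14 at day 8 (4.68-fold) that was 2.76 at day 4. Mgst1, already bright on the control with 4.72, had 5.48, 5.99 and 6.10 afterwards and was called from day 6, with 1.38 ± 0.14 at day 8. Mgst2 and Mgst3 had reached 98.8% and 124% of their day 8 change by day 4, and Mgst1 55.1%.

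The aldehyde dehydrogenases split in both directions, with 6 of 19 (31.6%) called higher and 6 (31.6%) called lower at day 8. Of all measured named genes 14.5% were higher and 10.4% lower. The family median was -0.30. The retinaldehyde dehydrogenases Aldh1a1, Aldh1a2 and Aldh1a3, which make retinoic acid, all fell. Aldh1a1 had a level of 7.05 on the CMP control and 3.99, 3.94 and 4.35 at days 4, 6 and 8, and fell by 2.70 ± 0.20 (6.50-fold) at day 8. Aldh1a2 had 4.39 on the control and 1.63, 1.54 and 1.69 afterwards, a change of -2.71 ± 0.20 at day 8. Aldh1a3 had 1.72 on the control and -3.13, -2.63 and -2.87 afterwards, a change of -4.59 ± 0.21 at day 8 (24.0-fold lower). All of them were at or below their day 8 level by day 4. Aldh1a7, a rodent paralog of Aldh1a1 that lies beside it on chromosome 19, moved the other way. It had 2.09 on the control and 2.92, 4.59 and 4.45 afterwards, a rise of 2.36 ± 0.20 at day 8 (5.13-fold).

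The remaining Aldh1 genes also fell. Aldh1l1 and Aldh1l2, the cytosolic and mitochondrial dehydrogenases of 10-formyltetrahydrofolate, were both lower on all 3 days. Aldh1l1 had 1.47 on the control and -0.73, -0.66 and -0.45 afterwards, and fell by 1.92 ± 0.20 at day 8. Aldh1l2 had 1.04 on the control and -0.24, -1.18 and -1.02 afterwards, and fell by 2.06 ± 0.20 at day 8. Aldh1b1, a mitochondrial acetaldehyde dehydrogenase, had -2.36 on the control and -3.05, -3.47 and -3.40 afterwards, and its change of -1.04 ± 0.23 at day 8 was -0.56 and not called after another background correction.

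Aldh3a1 had the largest rise of the family. This enzyme, an abundant protein of the cornea that oxidises medium-chain and aromatic aldehydes, had 2.36 on the control and 7.70, 7.43 and 7.77 at days 4, 6 and 8, a rise of 5.41 ± 0.14 at day 8 (42.5-fold). Its pair of probes gave 4.90 and 5.91. Aldh3a2, the fatty aldehyde dehydrogenase, stayed between 0.82 and 0.93 on the 4 arrays. Aldh3b2 was well above background at day 8 alone, with -4.65, and was at least 1.61-fold higher than on the control. Its measured change of 2.44 ± 1.48 placed it among the called genes, although the bound is under 2-fold. Aldh3b1 was not called, with -0.57 at day 8.

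Aldh6a1, Aldh9a1 and Aldh4a1 were called higher at day 8 as well. Aldh6a1, the methylmalonate semialdehyde dehydrogenase of valine breakdown, had -0.40 on the control and 1.03, 1.49 and 1.64 afterwards, a rise of 2.05 ± 0.15 at day 8 (4.13-fold). Aldh9a1, which acts in carnitine synthesis, had 1.70 on the control and 3.47, 3.20 and 2.92 afterwards, a rise of 1.77 ± 0.20 at day 4 and 1.22 ± 0.20 at day 8. Aldh4a1, of proline breakdown, had 2.15 on the control and 2.45, 3.32 and 3.31 afterwards, a rise of 1.16 ± 0.20 at day 8. Aldh9a1 was thus highest at day 4 and Aldh4a1 moved only after it. Aldh5a1, of GABA breakdown, had 2.82 on the control and 2.51 at day 8, and Aldh18a1, of proline synthesis, had -0.55 as its day 8 change. Aldh7a1 (0.37), Aldh8a1 (0.32) and Aldh16a1 (-0.35) were not called either.

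**Figure D2:**
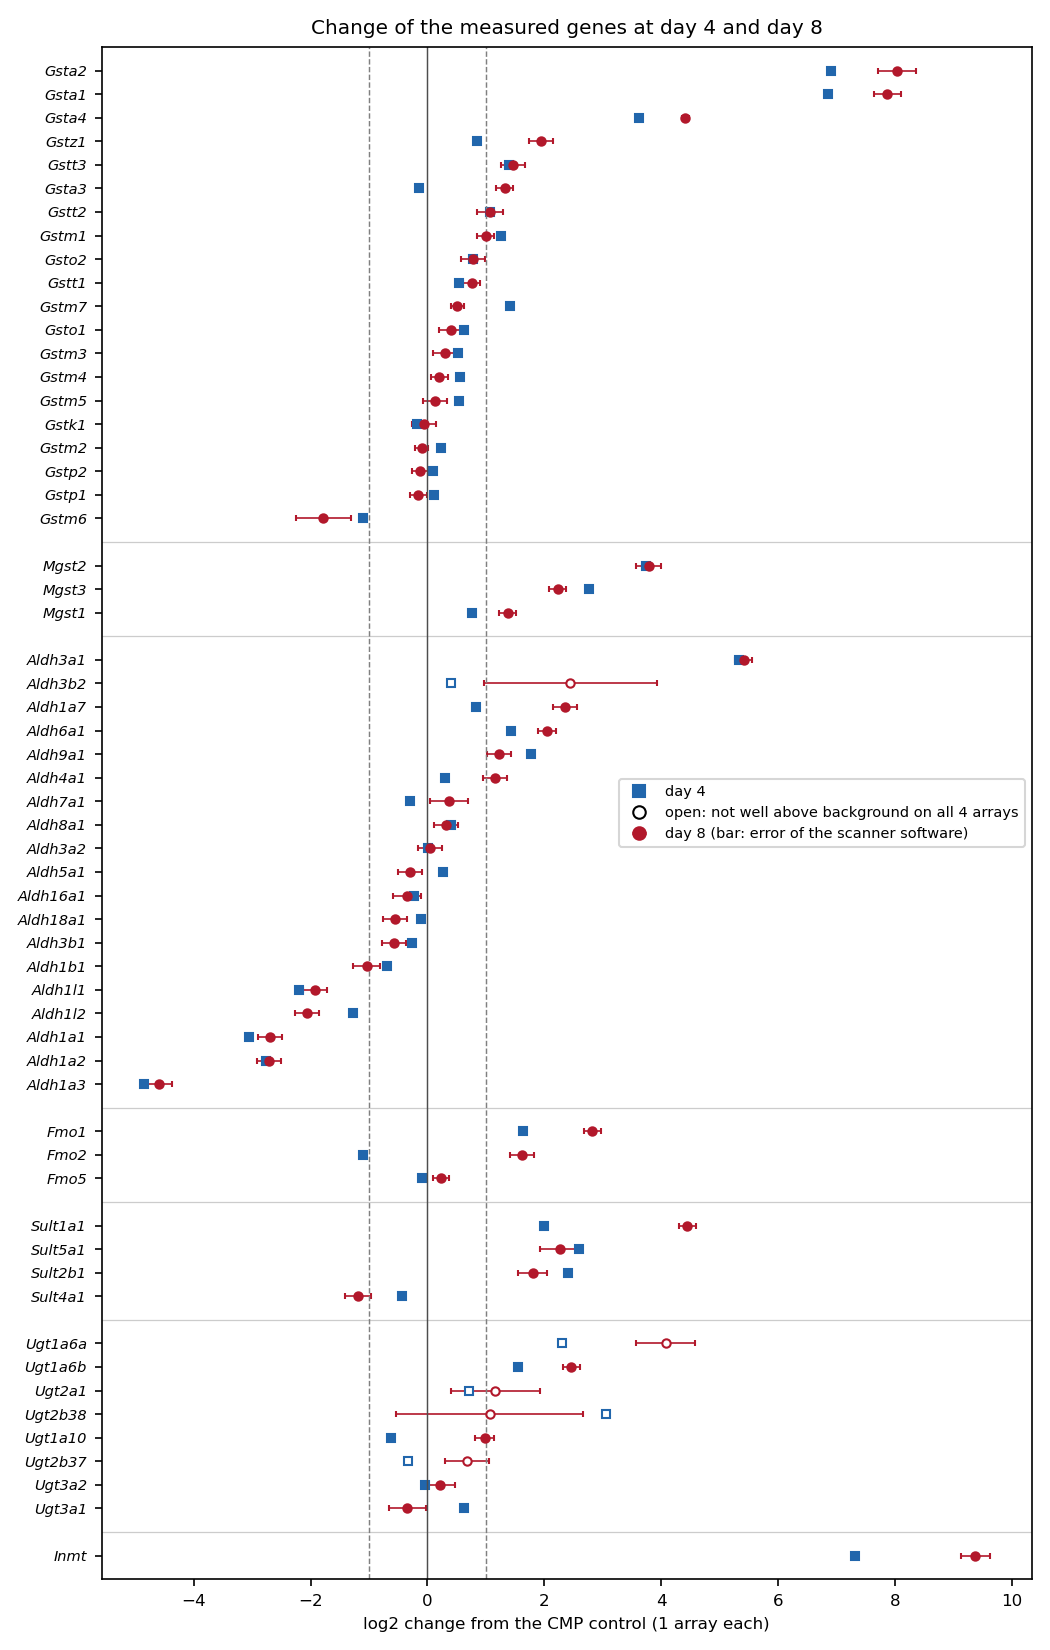
Log2 change from the CMP control (x axis) of the measured genes reported here (y axis, grouped by family and sorted by the day 8 change) at day 4 (blue squares) and day 8 (red circles, bars show 1 SD from the scanner software's error model). Dashed lines mark 2-fold, open symbols mark genes not well above background on all 4 arrays. Inmt, Gsta1 and Gsta2 lie farthest to the right, Aldh1a3 farthest to the left, and Fmo2 has day 4 below -1 and day 8 above 1.

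Flavin monooxygenases differed between the early and the late days. Fmo1 had -1.99 on the control and -0.36, 0.55 and 0.83 at days 4, 6 and 8, a rise of 2.82 ± 0.15 at day 8 (7.04-fold). Fmo2, known from lung, had 0.21 on the control and then -0.89, 0.33 and 1.84. It was therefore lower at day 4, by -1.10 ± 0.20, and higher at day 8, by 1.62 ± 0.20, and from day 4 to day 8 it rose 6.60-fold. Fmo5 had a mean of -1.79 on the control and -1.55 at day 8, and its 3 probes ranged from -0.38 to 0.82 in change. Fmo1 was also at least 2-fold higher at day 8 than at day 4, by 1.18 ± 0.14.

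Sulfotransferases were mostly not measured, but all 4 that were changed. At day 8, 3 were higher and 1 lower, where 14.5% and 10.4% of all measured named genes were. Sult1a1, the phenol sulfotransferase, had -1.88 on the control and 0.12, 2.22 and 2.57 at days 4, 6 and 8, a rise of 4.45 ± 0.15 at day 8 (21.8-fold). Sult2b1, which acts on cholesterol and hydroxysteroids, had -3.85 on the control and -1.45, -1.88 and -2.05 afterwards, a rise of 2.41 ± 0.25 at day 4 and 1.80 ± 0.25 at day 8. Sult5a1 had -4.59 on the control and -2.01, -1.76 and -2.32 afterwards, a rise of 2.27 ± 0.34 at day 8. Sult4a1, a brain form, fell, with -1.78 on the control and -2.21, -3.05 and -2.98 afterwards, a change of -1.20 ± 0.22. All of these except Sult1a1 were dim on every array and were not called at day 8 after another background correction, which pulls dim probes together.

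Among the glucuronosyltransferases, Ugt1a6b was the only gene well above background on all 4 arrays that was called against the control. Ugt1a6b, which glucuronidates small phenols, had 1.81 on the control and 3.36, 4.19 and 4.27 at days 4, 6 and 8, a rise of 2.46 ± 0.14 at day 8 (5.49-fold). Ugt1a6a was not well above background on the control and had -3.36, -1.85 and -1.59 afterwards, so it was at least 3.93-fold higher at day 4, at least 11.2-fold at day 6 and at least 13.4-fold at day 8. After normexp with quantile normalization the Ugt1a6a change at day 8 was 1.45 on the log2 scale. The Ugt1a genes share their last exons, and the array files list the Ugt1a6a probe under 4 Ugt1a genes and one of the 2 Ugt1a6b probes likewise. The Ugt1a6b probe listed under its own gene alone gave a change of 2.60, and the shared one 2.31. Ugt1a10 had -3.11 on the control and -3.74, -2.48 and -2.13 afterwards, a change of 0.98 ± 0.17 at day 8 that was not called and a rise of 1.61 ± 0.18 from day 4 to day 8. Ugt3a1 and Ugt3a2 had changes of -0.34 ± 0.31 and 0.21 ± 0.25 at day 8. The remaining genes were at the limit of detection: Ugt2b38 at day 4 was at least 2.18-fold higher than on the control, Ugt2a1 at day 8 at least 1.39-fold, and Ugt2b37 was well above background on the control and at day 8 with -4.73 and -4.06.

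Inmt, a methyltransferase of tryptamine and other indoleamines, had the largest change of the 59 measured genes. Its level was -3.92 on the CMP control and 3.40, 4.73 and 5.45 at days 4, 6 and 8, a change of 7.32 ± 0.25 at day 4 and of 9.37 ± 0.25 at day 8 (663-fold), and of 7.72 at day 8 after normexp with quantile normalization. It was measured by 1 probe, at chr6:55120770-55120829 in mm9 on the minus strand, which was well above background on all 4 arrays.

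**Figure D3:**
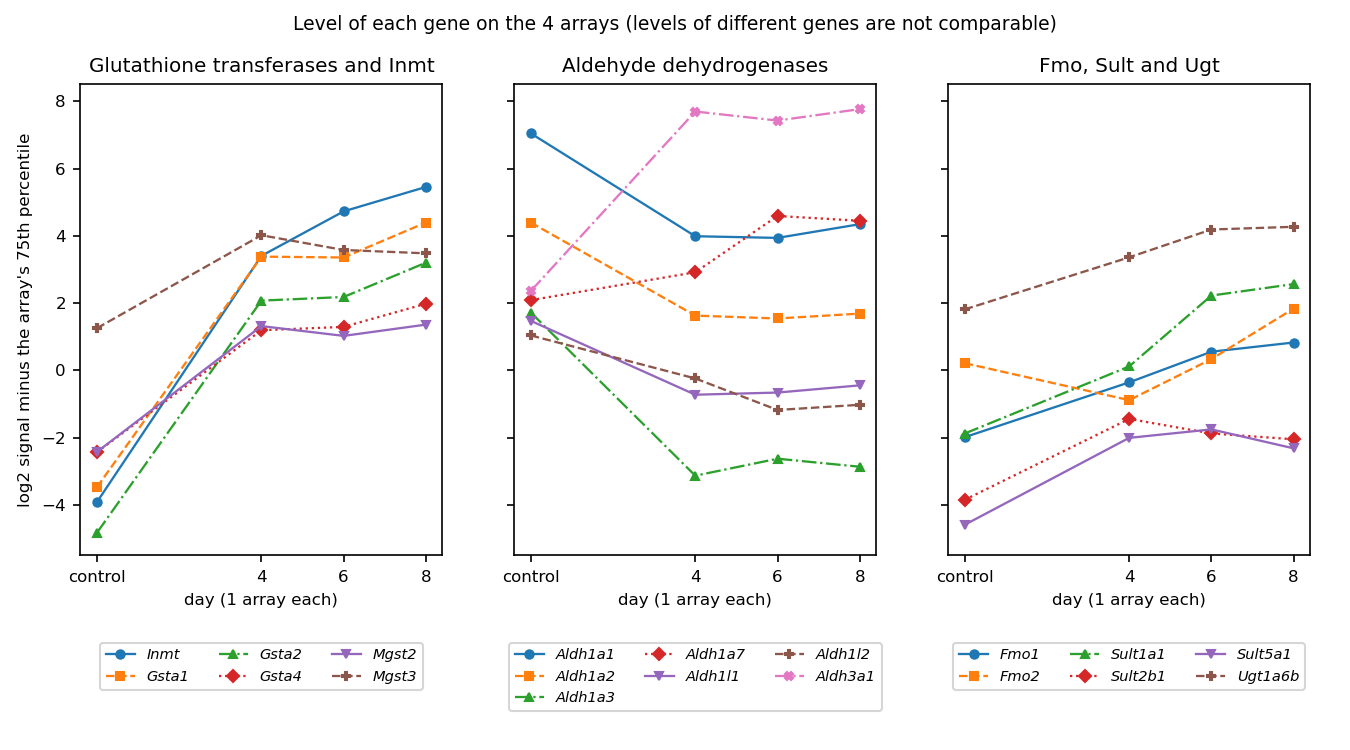
Level of selected genes on the 4 arrays (y axis, log2 signal minus the array's 75th percentile; x axis, control and day). Each point is 1 array and has no replicate. Inmt and the alpha class genes shown rise between the control and day 4, Aldh1a1, Aldh1a2 and Aldh1a3 fall in the same interval while Aldh3a1 rises, and Fmo2 dips at day 4 before it rises.

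Most of the change was in place at day 4. Of the 25 genes higher at day 8, the median gene had reached 70.1% of its log2 change by day 4, where the median over all 3333 genes higher at day 8 was 72.1%. The 8 genes lower at day 8 had reached 84.1%, against 75.5% over all lower genes. The timing of these genes as a group therefore lay near that of the array as a whole. Of the 25 higher genes, 12 (48%, against 47.2% of all higher genes) had at least 75% of their change at day 4, among them Gsta1, Gsta2, Gsta4, Mgst2, Aldh3a1 and Inmt, and 7 (28%, against 27.4%) had less than 50%, among them Sult1a1 (44.9%), Gstz1 (43.9%), Aldh1a7 (35.2%) and Aldh4a1 (25.7%). In all, 17 genes (28.8%) were higher on all 3 days, where 7.57% of all measured genes were, and 6 (10.2%, against 6.38%) were lower on all 3 days, the latter being Aldh1a1, Aldh1a2, Aldh1a3, Aldh1l1, Aldh1l2 and Gstm6.

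Between day 4 and day 8, 14 genes (23.7%) were at least 2-fold higher, where 5.13% of all genes were, and 1 (1.69%) was lower, where 3.43% were. With the array median as the scale, which lowers all genes here, the counts were 11 higher and 3 lower. The largest of these later rises were those of Fmo2 (2.72 ± 0.20), Sult1a1 (2.45 ± 0.14) and Inmt (2.05 ± 0.20). Aldh1a7 had 1.53 ± 0.20 and Gsta3 had 1.47 ± 0.14. The gene that was lower was Ugt2b38, which was well above background at day 4 alone. These later changes are not independent of those against the control, because the day 8 array is common to both and the day 4 array lies between them.

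Where a gene had several probes, they mostly moved the same way. Of 21 genes with more than 1 measured probe, the probes of 17 moved in the same direction at day 8, and the median range between probes of a gene was 0.29. Those of Fmo5, Gstm4 and Gstt1 differed in sign, and those of Aldh3a1, Fmo1, Fmo5, Gstm6 and Gstt1 were more than 1 apart. The probes of Mgst3 and Sult1a1 lay close together. The value of such a gene is the mean of its probes, and it is least certain for Gstm6 and Gstt1.

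**Figure D4:**
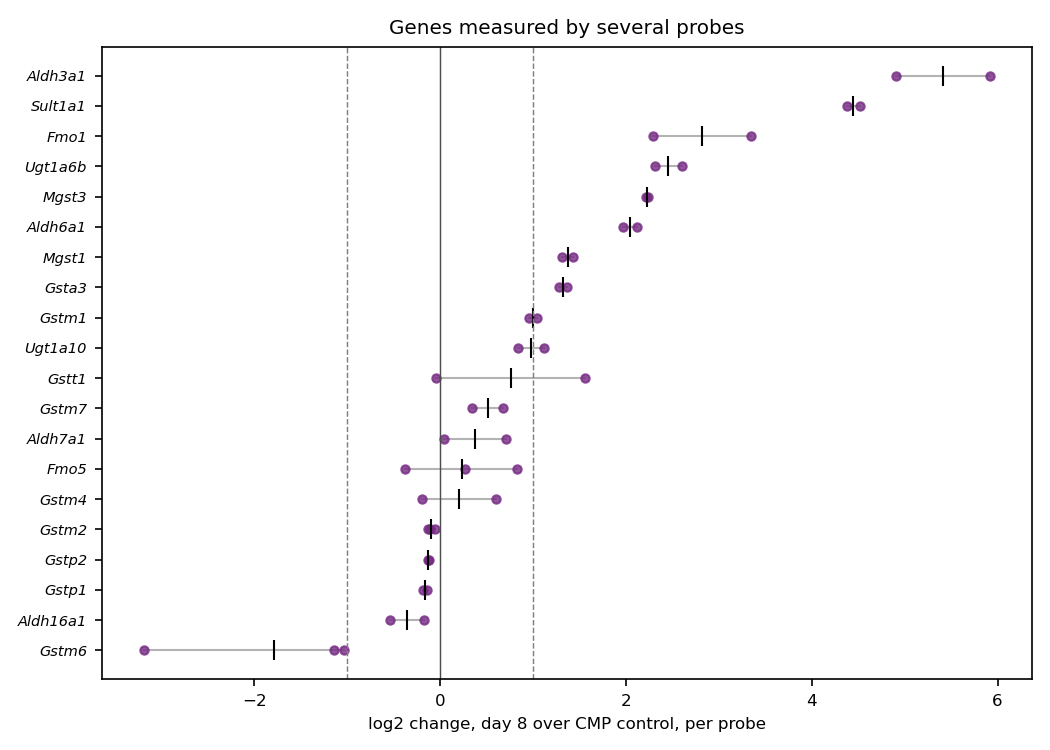
Log2 change from the CMP control at day 8 (x axis) of each measured probe (purple points) of the genes reported here with more than 1 measured probe (y axis), with the mean used for the gene as a black tick and dashed lines at 2-fold. Probes of most genes lie close together, those of Gstm6, Gstt1, Fmo1, Fmo5 and Aldh3a1 are more than 1 apart.

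The genes that supply substrates, cofactors and regulators to these enzymes were counted by list, and all list counts stand against 14.5% of all genes higher and 10.4% lower at day 8. Of 13 measured genes of glutathione supply and use, 1 was higher and 1 lower at day 8, with a median of -0.25. Ggt5, a gamma-glutamyl transferase, had -5.33 on the control and -2.25 at day 8, a rise of 3.08 ± 0.51 as the mean of a set of dim probes, and Slc7a11, the cystine transporter, had a change of 0.98 ± 0.25. Chac1, which degrades glutathione, fell by 1.71 ± 0.20, and Gclm, a subunit of the enzyme that limits glutathione synthesis, had -0.85 ± 0.20. The other subunit, Gclc, is on the same list and had 0.58 ± 0.20.

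Genes of the oxidant response were mostly not called. Of 11 genes for Nrf2 and its targets, which include several genes of the list above, 1 was higher and 0 lower at day 8, with a median of 0.24. At day 4, Nqo1 (1.47) and Slc7a11 (1.05) were higher and 0 were lower, where 10.7% and 8.65% of all genes were. At day 6, 0 were higher and Gclm (-1.13) was lower, against 11.5% and 10.5% of all genes. Nqo1, a quinone reductase, had 0.92 on the control and 2.30 at day 8, a rise of 1.38 ± 0.20, and Txnrd1, thioredoxin reductase, had -0.37 ± 0.20. A list of nuclear receptors and genes of the aryl hydrocarbon receptor had 3 of 8 higher and 0 lower, with a median of 0.64. The called genes were Ahrr, Pparg and Nr1h3 (1.39 ± 0.14). Ahr, the aryl hydrocarbon receptor itself (0.44 ± 0.29), and Nr1i3 (0.83 ± 0.24) were not called. Ahrr, the repressor of the aryl hydrocarbon receptor, had -6.10 on the control and -1.47 at day 8. This rise of 4.63 ± 0.75 is the mean of its probes. The control mean lay below -5.34, the lowest signal well above background on that array, so the size of the rise is uncertain. Pparg, the adipogenic nuclear receptor, rose by 3.84 ± 0.06. Arnt, the partner of the aryl hydrocarbon receptor, had -0.42 ± 0.14. Nr1i2, the pregnane X receptor, was well above background on no array.

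Cofactor supply for sulfation and glucuronidation had 1 of 9 genes higher and 2 lower, with a median of -0.23. Papss2, which makes the sulfate donor, fell by 1.07 ± 0.20, Ugp2, which makes UDP-glucose, fell by 1.00 ± 0.14, and Slc35d1, a carrier of UDP-glucuronic acid into the endoplasmic reticulum, rose by 1.44 ± 0.49. Other conjugating and phase II enzymes had 2 of 11 higher and 2 lower, with a median of -0.15. Ephx2, soluble epoxide hydrolase, had -1.17 on the control and 3.20 at day 8, a rise of 4.37 ± 0.21. Nqo2 fell by 1.42 ± 0.14 and As3mt, the arsenite methyltransferase, fell by 1.24 ± 0.23. Nnmt and Tpmt, methyltransferases like Inmt, are on this list and had -0.32 and -0.39.

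The retinoid pathway moved on both sides of the Aldh1a step. Of 15 measured genes, 7 were higher and 1 lower at day 8, with a median of 0.08. Rbp4, the retinol carrier, was not well above background on the control and had -1.64, 1.74 and 4.41 at days 4, 6 and 8, at least 692-fold higher at day 8. Adh1, an alcohol dehydrogenase that can oxidise retinol, was likewise not well above background on the control and had 0.09, 1.31 and 1.76 afterwards, at least 137-fold higher at day 8. Cyp26b1, which degrades retinoic acid, had 3.39 on the control and 1.89 at day 8 (2.82-fold lower), and Rdh5, a retinol dehydrogenase, had -0.75 ± 0.20. Chosen after their values were seen, Adh7 rose by 6.59 ± 0.35, Crabp2, a retinoic acid binding protein, by 3.44 ± 0.20 and Dhrs3, which reduces retinaldehyde, by 1.63 ± 0.20. Adh1, Adh7 and Dhrs3 were thus higher while Aldh1a1, Aldh1a2, Aldh1a3 and Cyp26b1 were lower.

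In the 250 bases searched, promoters of these genes as a whole held the oxidant and xenobiotic response motifs no more often than promoters in general. The whole includes genes well above background on no array. RefSeq promoter sequences (GRCm38.p6, from 250 bases before to 50 after the start) matched 67 of the 82 genes, with 81 promoters. Only the 250 bases before the start were searched for motifs. The antioxidant response element, searched as TGACNNNGC on both strands, was found in 6 of the 81 (7.41%), against 10.2% of all 32851 promoters. It was found in 3 of 25 promoters (12%) of genes higher at day 8 and in 1 of 8 (12.5%) of genes lower at day 8. For measured genes not called at day 8 it was 2 of 27, and for genes well above background on no array 0 of 21. The xenobiotic response element, searched as GCGTG on both strands, was found in 17.3% against 28.2% of all promoters. By group it was 20% for genes higher at day 8, 12.5% for lower genes and 22.2% for uncalled genes. For genes well above background on no array it was 9.52%. The letters TTGCNNAA, a part of the C/EBP site, were found in 14.8% against 9.56%. This share was 16% for genes higher at day 8, 25% (2 of 8) for lower genes and 7.41% for uncalled genes. It was 19% for genes well above background on no array. A match of letters is a description of the sequence, and no match says only that the letters are not in this window. The 4 windows with an antioxidant response element in genes called at day 8 are shown with the motif in capitals, and they come from chr1:21240434-21240502 (Gsta3, plus strand), chr6:138140441-138140509 (Mgst1, plus strand), chr1:167349874-167349942 (Aldh9a1, plus strand) and chr9:71215647-71215715 (Aldh1a2, plus strand).
Gsta3: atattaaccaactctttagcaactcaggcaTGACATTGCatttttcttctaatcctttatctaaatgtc
Mgst1: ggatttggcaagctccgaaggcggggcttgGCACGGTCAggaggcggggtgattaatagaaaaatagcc
Aldh9a1: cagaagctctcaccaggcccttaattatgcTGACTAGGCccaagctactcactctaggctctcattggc
Aldh1a2: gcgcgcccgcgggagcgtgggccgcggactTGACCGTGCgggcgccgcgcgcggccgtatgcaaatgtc
In Mgst1 the motif lies on the other strand. Gsta3, Mgst1 and Aldh9a1 were higher at day 8 and Aldh1a2 was lower, so the 4 genes with these windows did not move in 1 direction. Gsta1, Gsta2 and Inmt, which had the larger rises, are not among the 6 genes with the motif in this window, and Gsta4 had no promoter in the table.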

How the data were processed

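RNA of 4 conditions was hybridised to 4 single-colour Agilent SurePrint G3 Mouse GE arrays. The deposited scanner files hold, per the file headers, a background-subtracted Cy3 intensity for each spot with its error and flags, made by the authors with Feature Extraction, version 10.7.3.1 by the headers and 9.5.3 by the submitters' processing notes. A deposited table of log2 values was normalized by the authors in GeneSpring. It holds all 55681 probes, with a 75th percentile close to 0. Its values lie near the scanner log2 value minus a constant per array. The spread of that difference was between 0.079 (day 4) and 0.129 (control).

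Control spots and outlier spots (87 to 106 an array) were left out, the log2 intensity was averaged over the spots of a probe, and the array's 75th percentile was subtracted. The filter kept 35544 probes, those flagged as well above background on 1 or more arrays, and values were averaged over the kept probes of each gene. The median SD between spots of a probe was 0.061 on the control and 0.062 at day 8. A gene below background on 1 array is given as a bound, taken from the lowest signal well above background there or its own signal if higher. Without replicates, calls rest on a 2-fold difference and no p-value was computed. Members and lists were chosen with earlier results of these data known.

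Genes named are every member changed at least 2-fold at day 4, 6 or 8, up to 2 steady members a family, and up to 2 rises and 2 falls a pathway list, with additions stated in the text; single values of some genes counted in the totals are not reported here. Alternatives were quantile normalization, normexp (offset 50) with quantile normalization, the authors' values, the array median as the scale, no filter or all 4 arrays, the brightest probe, single probes, outlier spots kept, a 1.5-fold limit, and a call over 2 errors. The script was tested on simulated data. Promoters came from RefSeq, GRCm38.p6, and probe positions, on mm9, from the array files. Python 3.11.15, numpy 2.4.6, pandas 2.3.3, R 4.3.3 and limma 3.58.1 were used.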

Additional observations from a re-analysis of the deposited data

Results flagged for a closer look

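Fmo2 was the only measured gene of these families called in opposite directions on different days. Its change from the CMP control was -1.10 at day 4 and 1.62 at day 8 on the log2 scale, each from 1 array, with a single probe and an error of 0.20. The difference between the days was not tested, because no condition had a replicate. Groups of 1 array gave no other way to look for a sample far from the rest.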

How the results depend on the processing

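No paired analysis was possible because there was a single array for every condition and nothing was tested. Of the 33 genes called at day 8, the same direction was called for 33 with the authors' normalized values, with the brightest probe or with outlier spots kept, 32 without a filter (Gstm6 lost), 31 after quantile normalization (Gstt2 and Ugt2a1 lost), 30 with genes well above background on all 4 arrays, 29 with the array median as the scale (Aldh4a1, Aldh9a1, Gstt2 and Ugt2a1 lost) and 25 after normexp with quantile normalization (Aldh1b1, Aldh3b2, Gstm6, Gstt2, Sult2b1, Sult4a1, Sult5a1 and Ugt2a1 lost). The array median moved the median of all genes by -0.14, -0.16 and -0.27 at days 4, 6 and 8, and by -0.12 for day 8 over day 4. Under that scale the median change of the genes was 0.39, 0.26 and 0.49, and -0.063 for day 8 over day 4. Under normexp it was 0.34, 0.27 and 0.30 and the number lower was 5 on each day, with 9 higher and 0 lower for day 8 over day 4. Without a filter the medians were 0.088, 0.11 and 0.30, and -0.040 for day 8 over day 4, and the Sult median at day 8 was -0.068. With all 4 arrays the day 8 median was 0.46, and with each probe on its own the day 4 median was 0.40. The number lower at day 8 than at day 4 was 7 at a 1.5-fold limit, 3 after quantile normalization or with the array median, 2 for single probes and 0 with all 4 arrays. The signs of 3 uncalled genes at day 8 turned, namely Gstm2 (0.14 after quantile normalization and 0.13 under normexp), Ugt3a2 (-0.043, -0.071 and, with the array median, -0.055) and Fmo5 (-0.028 with the array median). Under normexp the day 8 changes of further dim or called genes were Aldh1a3 -3.67, Aldh3b2 0.21, Fmo1 2.22, Gsta4 3.51, Gstm6 -0.62 (-1.14 with the brightest probe), Gstt2 0.44, Mgst2 2.86, Sult1a1 3.78, Sult2b1 0.73, Sult5a1 0.67, Ugt2a1 0.17 and Ugt2b38 0.12. Over the 4 settings run for single named genes, 57 of their day 8 values stayed within the technical SD of 0.087, 109 moved by more without a change of sign and 6 changed sign. Where the cause is not given by the construction of a setting, it was not tested. Signal near the background and the number of arrays limit the precision.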

Other observations

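Export pumps and carriers of conjugates moved in both directions. Of 10 measured transporters, 4 were higher and 2 lower at day 8, when 14.5% of all measured genes were higher and 10.4% lower, with a median change of 0.61. Abcb1a, a P-glycoprotein, had a level of -1.32 on the CMP control and 0.98 at day 8, a rise of 2.30 ± 0.21. Abcc6 was not well above background on the control and was at least 1.55-fold higher at day 8. Abcc3, which exports glucuronides, had -0.14 on the control and -2.40 at day 8, and fell by 2.26 ± 0.21. Slco3a1, an organic anion carrier, had 4.02 on the control and 2.12 at day 8, and fell by 1.90 ± 0.14.

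Breakdown of branched-chain amino acids, the pathway that Aldh6a1 belongs to, had 2 of 18 genes higher and 0 lower at day 8, with a median of 0.47. Mccc1 and Mccc2, the subunits of methylcrotonoyl-CoA carboxylase of leucine breakdown, were the called genes, with 1.30 ± 0.14 and 1.14 ± 0.45. Bcat1, the cytosolic aminotransferase, had -0.51 ± 0.12 and Hsd17b10 had -0.20 ± 0.20. At day 4, when 10.7% of all genes were higher and 8.65% lower, 0 of the 18 genes were called in either direction, while Aldh6a1 was already 1.44 higher.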
